A study of Mus musculus with 4 samples.

Results

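The comparison described here sets all-trans retinoic acid (ATRA) on skin that also received nicotinamide (NIC) against skin that received nicotinamide alone, 1 array against 1 array, in mouse back skin. Its members are the genes that the microarray read brightly: targets of a gene were averaged on the log2 scale and a gene was kept where its mean over the 4 arrays of the series was 8.5 or more, an intensity of about 362. This left 6366 of 24203 genes, of which 5144 carry a gene symbol and 1222 a clone or predicted name. The limit fell between Birc5, a mitotic regulator, which read 308 on ATRA+NIC and 351 on NIC and lay just inside, and Deaf1, a transcription factor, which read 262 on ATRA+NIC and 641 on NIC and lay just outside.

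Per the labels, the creams were put on the back of male BALB/c mice, 8 weeks old, 2 times a day for 5 days. The ATRA+NIC group received 0.1% ATRA cream with a nicotinamide cream and the NIC group the nicotinamide cream alone. The ATRA group received 0.1% ATRA cream, and the Control group an oil/water cream. The labels give neither the concentration of nicotinamide nor the number of mice behind each array. The sample labels name skin and the series title names epidermis. With 1 array for each group there is no spread between replicates to set a difference against, so no test was run, every difference describes these 2 arrays, and the number of arrays limits its precision.

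ATRA, an acid made from vitamin A, enters the nucleus on binding proteins such as CRABP2, binds retinoic acid receptors that sit on DNA as partners of retinoid X receptors, and is broken down by CYP26 enzymes. In skin, topical retinoids are known to thicken the living epidermis, to alter cornification and to irritate, and retinoic acid is known to act on the hair cycle. Nicotinamide, a form of vitamin B3, is a source of NAD and an inhibitor of NAD-consuming enzymes.

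The 4 arrays were alike in overall level. The median over all targets lay between 102 and 105, the random control probes near the bottom of the scale, and between 58.7% and 60.2% of targets read at least 2 times the random probes of their array. The ATRA+NIC array had the highest random probes, at 36.3, and the lowest such share. None of the 6366 bright genes read under 2 times the random probes on ATRA+NIC or NIC, and 13 did on ATRA. Markers of skin were present: the basal keratin Krt14 read 34261 on ATRA+NIC and 31801 on NIC, loricrin (Lor), the main protein of the cornified envelope, 40494 on ATRA+NIC and 40540.5 on NIC, and Col1a1, a collagen of the dermis, 30739.9 on ATRA+NIC and 32430.0 on NIC. These 3 genes differed by 0.11, -0.0017 and -0.077 on the log2 scale, and markers of both epidermis and dermis were thus read on both arrays.

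At least 2-fold higher on ATRA+NIC than on NIC were 239 of the 6366 bright genes (3.75%), and 267 were at least 2-fold lower (4.19%). The median difference over all bright genes was 0.03 (log2, ATRA+NIC minus NIC), 5% of genes lay below -0.90 and 5% above 0.90. The tail of lower genes was the longer one: 118 of the 267 were at least 4-fold and 59 at least 16-fold lower, whereas 27 of the 239 were at least 4-fold and 3 at least 16-fold higher. Where a bright gene had 2 or more targets, 2533 genes, the median standard deviation of the difference over its targets was 0.28. Every target had the same sign for 60 of 62 such genes among the higher ones and for 69 of 70 among the lower ones, and every target was itself past 2-fold for 25 of the 62 and 40 of the 70. The other 177 higher and 197 lower genes rest on 1 target each.

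**Figure D1:**
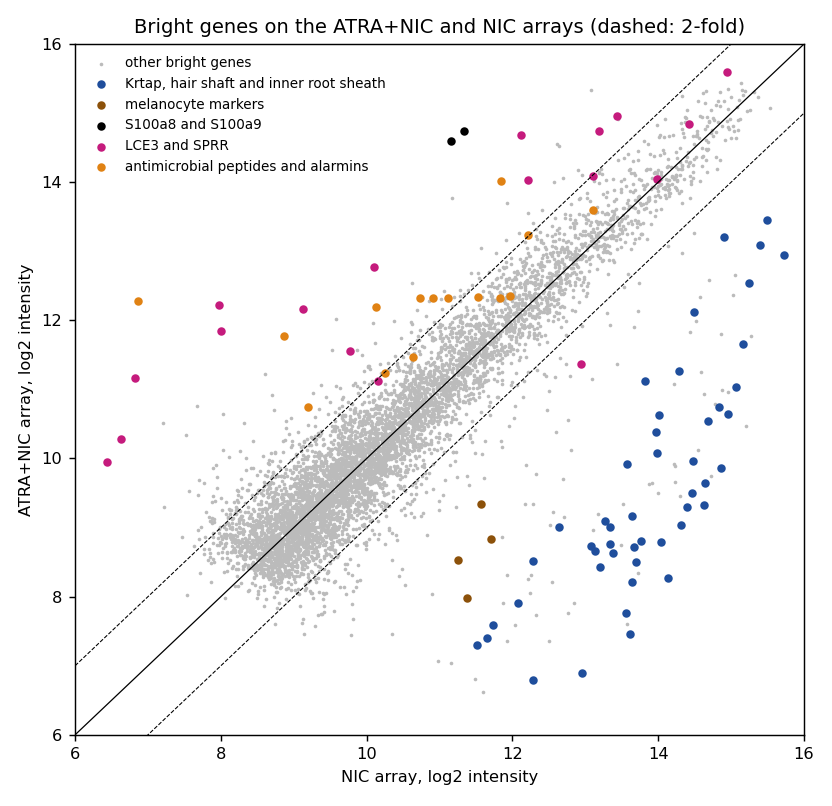
Log2 intensity of the 6366 bright genes on the ATRA+NIC array (vertical axis) and on the NIC array (horizontal axis), 1 point per gene, with coloured gene groups. Hair and Krtap genes (blue) and melanocyte markers (brown) lie below the lower 2-fold line, and LCE3, most SPRR genes, S100a8 and S100a9 lie on the side of the ATRA+NIC array.

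Genes of the hair follicle made up the far end of the lower genes. The hair shaft is built of hair keratins packed in a matrix of keratin-associated proteins (the Krtap family), and it is moulded by the inner root sheath, a sleeve rich in its own keratins and in trichohyalin. All 8 bright hair shaft keratins, all 8 bright inner root sheath genes and all 32 bright Krtap genes were at least 2-fold lower on ATRA+NIC, with median differences of -4.33, -3.55 and -4.54. S100a3, a gene of the hair cuticle, is counted among the inner root sheath genes here and below. All 48 read higher on NIC than on the other 3 arrays. In RNA of whole skin, fewer cells of a type and less RNA per cell cannot be told apart, here and for the cell types below.

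Krt34, a keratin of the hair shaft (MM9, chromosome 11, 99898701 to 99902846), read 630.1 on ATRA+NIC and 21543 on NIC, and 71.2 on ATRA and 7193 on Control. Both ATRA arrays were far below both arrays without ATRA, and the difference was -5.10 with nicotinamide and -6.66 without it (ATRA minus Control). The ATRA reading of Krt34 was close to 2 times the random probes of that array (69.6), which limits the size of the second difference. Krt33a, a related shaft keratin, read 799 on ATRA+NIC and 25443 on NIC and differed by -4.99, and Krt81, a shaft keratin of the opposite chain type, read 1594 on ATRA+NIC and 31729.9 on NIC and differed by -4.32. The smallest drop among the 8 was that of Krt35, at -3.76.

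In the inner root sheath, Krt71, a sheath keratin (chromosome 15, 101564711 to 101573523), read 8722 on ATRA+NIC and 42996 on NIC, and 10642 on ATRA and 30874 on Control, and differed by -2.30. Trichohyalin (Tchh), which cross-links the sheath filaments, read 11162 on ATRA+NIC and 46098 on NIC, and 6524 on ATRA and 31273 on Control, and differed by -2.05. Krt26, another sheath keratin, differed most, at -4.21, with 157 on ATRA+NIC and 2911 on NIC. The order of arrays was not the same for all of the 8: ATRA+NIC was the lowest of the 4 arrays for 4 of them and ATRA for the other 4. S100a3, a calcium-binding protein of the hair cuticle, was counted among the 8. It read 2107 on ATRA+NIC and 34272 on NIC, and 2360.3 on ATRA and 15889 on Control, and differed by -4.02.

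Krtap4-7 (chromosome 11, 99504457 to 99505378) had the lowest difference among genes with a symbol. It read 177 on ATRA+NIC and 12516 on NIC, and 132 on ATRA and 4371 on Control, a difference of -6.15 with nicotinamide and -5.05 without it. Krtap2-4 read 119 on ATRA+NIC and 7897 on NIC (-6.05), Krtap28-13 309.7 on ATRA+NIC and 17892 on NIC (-5.85) and Krtap6-1 364 on ATRA+NIC and 13307 on NIC (-5.19). The other end of the family was Krtap5-1, which read 9464 on ATRA+NIC and 30546 on NIC, and 1058 on ATRA and 23886 on Control, and differed by -1.69 with nicotinamide and -4.50 without it. Summed over the 32 bright members, the family read 43883 on ATRA+NIC and 550299 on NIC, and 10613 on ATRA and 238421 on Control. ATRA was the lowest array for 31 of the 32. Krtap2-4, Krtap3-3, Krtap6-1 and Krtap16-10 read under 2 times the random probes on ATRA, which limits their ATRA minus Control values, and near-identical Krtap sequences make single members less certain than the family.

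The promoter windows of a shaft keratin and of the lowest Krtap gene are shown because their families were lower along whole loci. They run from 250 bases before to 50 after the transcript start (RefSeq, GRCm38.p6, minus strand), Krt34 at chr11:100041505-100041804 and Krtap4-7 at chr11:99644040-99644339. Capitals mark exact matches on either strand. The strings searched were TATAAA, where the basal transcription machinery docks, and CTTTGA, the core read by TCF and LEF factors, which answer WNT signals. Also searched were TGANTCA, read by Fos and Jun dimers, and the core TTNNGCAA of C/EBP factors. The last string was AGGTCA, the half-site of nuclear receptors such as those for retinoic acid.
Krt34: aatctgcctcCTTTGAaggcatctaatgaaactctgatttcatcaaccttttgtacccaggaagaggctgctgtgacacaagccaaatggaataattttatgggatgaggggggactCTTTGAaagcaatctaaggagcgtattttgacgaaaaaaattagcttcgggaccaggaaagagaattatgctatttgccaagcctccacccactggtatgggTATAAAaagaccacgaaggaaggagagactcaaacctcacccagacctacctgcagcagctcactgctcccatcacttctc
Krtap4-7: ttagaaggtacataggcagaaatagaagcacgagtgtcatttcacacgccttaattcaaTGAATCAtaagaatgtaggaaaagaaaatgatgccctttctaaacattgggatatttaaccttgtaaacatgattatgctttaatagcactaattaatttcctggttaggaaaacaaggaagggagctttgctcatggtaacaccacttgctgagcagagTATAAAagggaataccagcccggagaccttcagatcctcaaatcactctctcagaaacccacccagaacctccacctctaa
Both hold TATAAA from base -31 to -26 before the start. Krt34 holds CTTTGA at -240 to -235 and at -133 to -128, and Krtap4-7 holds TGANTCA at -191 to -185. Among the 48 lower hair shaft, inner root sheath and Krtap genes, 38 had a window, and TATAAA was in 29 of them (76.3%), against 10.4% of the windows of all bright genes and 14.2% of all 27025 promoters. CTTTGA was in 12 of the 38 (31.6%), against 12.4% of the windows of all bright genes and 16.2% of all promoters. TGANTCA was in 7 of the 38 (18.4%), against 6.06% and 7.93%. A match is a string of letters and not a bound site, and windows of near-identical genes are not independent.

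The lower genes lay in runs along the genome. A run was taken as 4 or more genes past 2-fold with starts at most 250000 bases apart, so its ends were set by the genes that passed. There were 6 runs of lower genes with 105 genes, and 5 of the 6, with 97 genes, held Krtap genes. On chromosome 11, from 99141406 to 99997242 (MM9), 33 of 35 bright genes were lower, with a median of -4.30. It runs from Krt24, which sits next to the inner root sheath keratins, to Krt15. On chromosome 16, from 88647113 to 89508568, all 35 bright genes were lower, with a median of -3.02. The runs with Krtap genes hold 55 of the 70 lower genes that have only a clone or predicted name, and of the 97 genes themselves 96 were also at least 2-fold lower in ATRA minus Control. The remaining run, on chromosome 15 from 101262224 to 101700049, is the type II keratin locus, where 8 of 15 bright genes were lower and 5 were higher. Its lower genes were shaft and sheath keratins and Krt77, and among its higher ones were Krt6a and Krt6b.

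Genes that steer the follicle were lower too, to a smaller extent. Of 11 bright regulators of the hair matrix, 7 were at least 2-fold lower and 0 higher, with a median of -1.50. Without nicotinamide 3 of the 11 were lower, with a median of -0.19. Dlx3, a homeobox factor of the hair matrix (chromosome 11, 94981448 to 94986599), read 872 on ATRA+NIC and 5105 on NIC, and 1224 on ATRA and 3448 on Control, and differed by -2.55. Foxn1, the factor missing in nude mice, read 631 on ATRA+NIC and 2394 on NIC, and 539.6 on ATRA and 1307 on Control, and differed by -1.92. The other 5, named after their values were seen, were the ligands Bmp4 and Bmp2, the vitamin D receptor Vdr, the factor Gata3 and the growth factor Fgf22, between -1.91 and -1.42. Of 16 hair genes that are not keratins, 8 were lower, among them Vsig8, a membrane protein of the hair shaft, which read 163 on ATRA+NIC and 3879 on NIC, and 233 on ATRA and 1569 on Control, and differed by -4.57. The secreted carbonic anhydrase Car6 read 213 on ATRA+NIC and 5109 on NIC and differed by -4.58.

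Of 8 bright genes listed for the bulge, the niche of follicle stem cells, 4 were lower: Krt15, Sox9, Lhx2 (-1.52) and Tcf3 (-1.08). By its gene ID this Tcf3 is the factor E2A. It is not the bulge factor of the same name, Tcf7l1, so its value does not speak for the bulge. Krt15, a keratin of bulge and basal cells, read 1513 on ATRA+NIC and 6957 on NIC, and 1929.9 on ATRA and 3111 on Control, and differed by -2.20. Sox9, a stem cell factor of the follicle, read 449.9 on ATRA+NIC and 1372 on NIC, and 478 on ATRA and 809.5 on Control, and differed by -1.61. Cd34, a surface marker of bulge cells that vessels also carry, read 1588 on ATRA+NIC and 1517 on NIC and differed by 0.067. Without nicotinamide, 0 of the 8 were 2-fold lower. Sfrp1, a secreted WNT antagonist, read 316 on ATRA+NIC and 1397 on NIC, and 419 on ATRA and 654 on Control, and differed by -2.14.

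Melanocyte genes were lower on ATRA+NIC. BALB/c mice are albino, with an inactive tyrosinase, and their hair bulbs still hold melanocytes. All 4 bright markers of 14 on the array were at least 2-fold lower, with a median of -2.79, and of all 14, dim ones included, 11 were lower by 2-fold or more and 0 higher, against 6.88% lower and 7.17% higher over all 24203 genes. Mlana, a melanosome protein (chromosome 19, 29772430 to 29782796), read 253 on ATRA+NIC and 2648 on NIC, and 308 on ATRA and 977 on Control, and differed by -3.39. Tyrp1, a pigment enzyme, read 370.5 on ATRA+NIC and 2441 on NIC, and 550.0 on ATRA and 772 on Control, and differed by -2.72 with nicotinamide and -0.49 without it. Si, the older symbol of the melanosome scaffold gene Pmel, read 457 on ATRA+NIC and 3324 on NIC and differed by -2.86, and the pigment enzyme Dct read 649 on ATRA+NIC and 3026 on NIC and differed by -2.22. Summed, the 4 read 1729 on ATRA+NIC and 11439.7 on NIC, and 2356 on ATRA and 4511 on Control. ATRA+NIC was the lowest and NIC the highest array for all 4, and 1 of the 4 was 2-fold lower in ATRA minus Control, where their median was -0.87.

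Other genes outside the hair and Krtap lists were also far lower. Cryba4, a crystallin gene (chromosome 5, 112675511 to 112680818), read 131 on ATRA+NIC and 2289 on NIC, and 100.3 on ATRA and 672 on Control, and differed by -4.12. Dapl1, an epithelial gene of differentiation, read 835 on ATRA+NIC and 6597 on NIC (-2.98), and Mt4, the metallothionein of squamous epithelia, 1334 on ATRA+NIC and 6222 on NIC (-2.22). Padi4, a peptidylarginine deiminase, read 338 on ATRA+NIC and 1431 on NIC (-2.08). Some of these were lower on ATRA+NIC than on NIC while ATRA and Control were close. Smad6, an inhibitor of BMP signalling, read 175 on ATRA+NIC and 884 on NIC, and 322 on ATRA and 353 on Control, with differences of -2.34 with nicotinamide and -0.13 without it. Sox4, a factor of progenitor cells, read 205 on ATRA+NIC and 898 on NIC, and 399 on ATRA and 407 on Control, with differences of -2.13 and -0.03. For both genes NIC was the highest array, ATRA+NIC the lowest, and ATRA and Control lay between them. Smad6 counts as bright through NIC alone and was under the brightness limit on ATRA+NIC, ATRA and Control. That NIC was its highest array is thus in part what the limit brings.

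**Figure D2:**
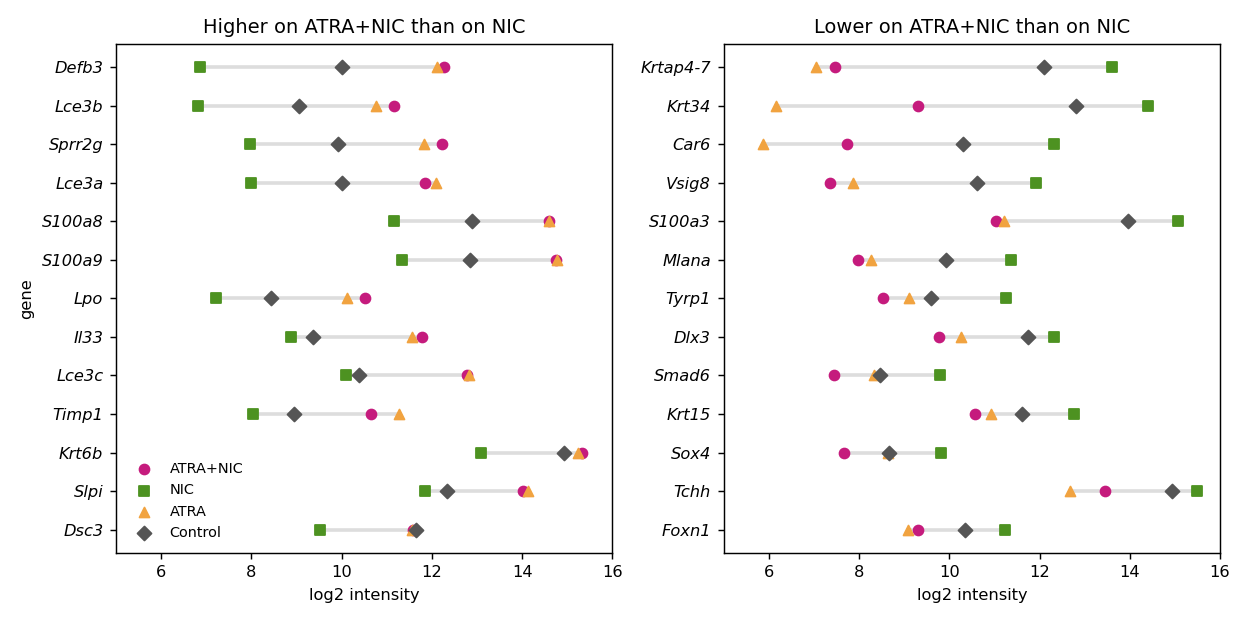
Log2 intensity on each of the 4 arrays, 1 symbol per array, for 13 genes that were higher on ATRA+NIC than on NIC (left) and 13 that were lower (right). On the left NIC is the lowest array for all 13 genes, and on the right it is the highest for all 13, with Control between NIC and at least 1 ATRA array in most.

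On the side of the higher genes stood the stress-induced precursors of the cornified envelope. Late cornified envelope genes of the LCE3 group and small proline-rich (SPRR) genes encode small proteins that transglutaminases join into the envelope, and they are known to be induced when the barrier is injured. All 5 bright LCE3 genes were at least 2-fold higher on ATRA+NIC, with a median of 3.66, and all 5 were 2-fold higher without nicotinamide too, with a median of 2.07. Over all bright genes 3.75% were higher and 4.19% lower. Lce3f was under the brightness limit on NIC and Control, so it counts as bright through the ATRA arrays. The 1 dim LCE3 gene, 2310001H18Rik (RefSeq symbol Lce3e), differed by 0.92 with nicotinamide and 1.09 without it. Of 13 bright SPRR genes 7 were higher and 1 lower, with a median of 1.52, against 2 higher and 1 lower without nicotinamide and a median of 0.22.

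Lce3b (chromosome 3, 92736907 to 92737960) read 2299 on ATRA+NIC and 113 on NIC, and 1729.5 on ATRA and 529.7 on Control, and both of its targets were higher, by 4.04 and 4.66. Lce3a read 3669 on ATRA+NIC and 256 on NIC, and 4332 on ATRA and 1031 on Control, and differed by 3.84. Lce3c read 6969 on ATRA+NIC and 1095 on NIC, and 7194 on ATRA and 1345 on Control, and differed by 2.67. NIC was the lowest array for all 5 bright LCE3 genes. Summed, the 5 read 18748 on ATRA+NIC and 2119 on NIC, and 17586 on ATRA and 4128 on Control.

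Among SPRR genes, Sprr2g (chromosome 3, 92177852 to 92179126) read 4776 on ATRA+NIC and 251 on NIC, and 3604 on ATRA and 961 on Control, and differed by 4.25. Sprr2f read 26349.5 on ATRA+NIC and 4439.6 on NIC, and 22071 on ATRA and 13349 on Control, and differed by 2.57 with nicotinamide and 0.73 without it. Sprr1a was nearly level, at 16977 on ATRA+NIC and 16162 on NIC (0.071), and Sprr4 went the other way, at 2635 on ATRA+NIC and 7839 on NIC (-1.57). NIC was the lowest array for 11 of the 13. The Sprr2 genes are near copies of each other and their targets may read more than 1 of them.

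The late envelope group LCE1, expressed in undisturbed upper epidermis, read otherwise. Of 8 bright members 0 were higher and 1 lower, with a median of -0.49, and the lower one was Lce1m, which read 1537 on ATRA+NIC and 4141 on NIC (-1.43). Filaggrin (Flg), which bundles keratin, read 15062 on ATRA+NIC and 16339 on NIC (-0.12). Involucrin (Ivl), an early scaffold of the envelope, was lower, with 2331 on ATRA+NIC and 5618 on NIC, and 1991 on ATRA and 2585 on Control, and a difference of -1.27. Of 6 bright suprabasal genes 5 lay within 2-fold, among them Krt10, which read 38720.0 on ATRA+NIC and 20586 on NIC (0.91), and 1 was lower, Krt77, a keratin of upper epidermis and sweat duct, which read 288 on ATRA+NIC and 1472 on NIC (-2.35). All 9 bright basal keratinocyte genes lay within 2-fold.

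Of 4 keratins of wounded epidermis 2 were at least 2-fold higher and 0 lower. Krt6a (chromosome 15, 101520358 to 101524736) read 23646 on ATRA+NIC and 6384 on NIC, and 27575 on ATRA and 11503 on Control, and differed by 1.89. Krt6b read 41212 on ATRA+NIC and 8635 on NIC, and 38643 on ATRA and 31228 on Control, and differed by 2.25 with nicotinamide and 0.31 without it. Krt16, their partner chain, read 40012 on ATRA+NIC and 24985 on NIC, and Krt17 read 16648 on ATRA+NIC and 22321 on NIC. They differed by 0.68 and -0.42. The loci of Krt6a and Krt6b overlap on the array's annotation, and their sequences are near identical.

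Antimicrobial peptides and alarmins were higher as well. These are products that keratinocytes and white cells release against microbes or on injury. Of 15 bright members 9 were at least 2-fold higher and 0 lower, with a median of 1.21, against 4 higher and 0 lower without nicotinamide. NIC was the lowest array for all 15. Defb3, a beta-defensin (chromosome 8, 19293360 to 19295291), had the highest difference among genes with a symbol. It read 4959 on ATRA+NIC and 116 on NIC, and 4433 on ATRA and 1030.5 on Control, with differences of 5.42 with nicotinamide and 2.11 without it, and its 2 targets differed by 5.06 and 5.77.

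S100a8 (chromosome 3, 90473006 to 90473952) and S100a9, the subunits of calprotectin, read alike. S100a8 read 24707 on ATRA+NIC and 2280.1 on NIC, and 24863 on ATRA and 7522 on Control, and differed by 3.44. S100a9 read 27479.5 on ATRA+NIC and 2583 on NIC, and 28062 on ATRA and 7360.5 on Control, and differed by 3.41. The ATRA+NIC and ATRA arrays were close for both genes, and NIC was the lowest array, below Control. Both are made by neutrophils as well as by stressed keratinocytes, and the other 16 neutrophil markers were all dim. They summed to 1748 on ATRA+NIC and 1309 on NIC, and 2936 on ATRA and 1332 on Control. Of all 18 markers 7 were 2-fold higher (7.17% of all genes were) and 0 lower, and the 16 dim ones had a median of 0.85. Ly6g, a defining marker named after its values were seen, read 68.0 on ATRA+NIC and 70.5 on NIC. Both readings were near 2 times the random probes (72.6 on ATRA+NIC and 68.0 on NIC), so a difference in Ly6g was not detectable at this signal. The part of neutrophils in S100a8 and S100a9 was not tested.

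Il33, an alarm cytokine of epithelia (chromosome 19, 30020279 to 30035207), read 3500.1 on ATRA+NIC and 468 on NIC, and 3027 on ATRA and 661 on Control, and differed by 2.90. Slpi, a secreted inhibitor of leukocyte elastase, read 16576 on ATRA+NIC and 3682 on NIC, and 17965 on ATRA and 5127 on Control, and differed by 2.17. Lpo, lactoperoxidase, read 1456 on ATRA+NIC and 148 on NIC, and 1110.3 on ATRA and 345 on Control, and differed by 3.30. Il1f6, the older symbol of Il36a, an epidermal cytokine of the interleukin-1 family, read 5146 on ATRA+NIC and 1701 on NIC, and 5255 on ATRA and 3037 on Control, and differed by 1.60. In these 4 genes both ATRA arrays were above both arrays without ATRA. Lpo was under the brightness limit on NIC and Control and counts as bright through the ATRA arrays. For Lpo this order is thus in part what the limit brings. Of 9 bright genes of that family, receptors and antagonists included, 3 were higher and 0 lower. All 3 were also counted above among the higher antimicrobial peptides and alarmins. With other cytokines and dim genes, 27 on the array in all, 8 were higher and 2 lower. Over all genes 7.17% were higher and 6.88% lower. All 8 bright chemokines lay within 2-fold, the highest being Ccl8, at 3095 on ATRA+NIC and 1624 on NIC (0.93).

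The promoter windows of Defb3 (chr8:19293111-19293410), S100a8 (chr3:90668821-90669120), Sprr2b (chr3:92316455-92316754) and Sprr2h (chr3:92385435-92385734) are shown for the group of higher genes, the 2 Sprr2 windows because they share a pair of motifs (RefSeq, GRCm38.p6, plus strand, same length and same marks as above). Sprr2b and Sprr2h were themselves 1.82 and 1.54 higher on ATRA+NIC and were chosen for this after their values were seen.
Defb3: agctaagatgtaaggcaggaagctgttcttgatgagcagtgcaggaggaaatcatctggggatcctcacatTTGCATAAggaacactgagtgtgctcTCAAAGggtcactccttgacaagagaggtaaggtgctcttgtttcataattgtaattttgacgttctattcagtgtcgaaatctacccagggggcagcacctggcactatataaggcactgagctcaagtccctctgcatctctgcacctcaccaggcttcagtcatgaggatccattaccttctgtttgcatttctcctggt
S100a8: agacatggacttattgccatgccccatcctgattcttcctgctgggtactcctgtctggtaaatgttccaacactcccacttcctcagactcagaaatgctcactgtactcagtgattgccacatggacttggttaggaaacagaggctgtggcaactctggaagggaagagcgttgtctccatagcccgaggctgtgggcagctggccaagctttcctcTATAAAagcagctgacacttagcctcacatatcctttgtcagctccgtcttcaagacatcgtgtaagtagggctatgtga
Sprr2b: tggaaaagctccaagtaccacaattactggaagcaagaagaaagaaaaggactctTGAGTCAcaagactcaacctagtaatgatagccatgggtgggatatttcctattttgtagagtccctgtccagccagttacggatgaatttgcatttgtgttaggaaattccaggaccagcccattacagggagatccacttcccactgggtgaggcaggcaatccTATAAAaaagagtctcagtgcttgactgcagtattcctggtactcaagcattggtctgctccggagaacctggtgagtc
Sprr2h: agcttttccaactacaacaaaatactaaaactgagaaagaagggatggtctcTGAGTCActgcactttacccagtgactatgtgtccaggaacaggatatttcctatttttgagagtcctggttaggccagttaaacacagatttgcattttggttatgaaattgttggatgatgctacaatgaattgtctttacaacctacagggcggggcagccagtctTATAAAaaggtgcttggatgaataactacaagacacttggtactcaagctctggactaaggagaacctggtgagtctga
Defb3 holds a TTNNGCAA match from -179 to -172 and a CTTTGA match from -153 to -148, and S100a8 holds TATAAA from -30 to -25. Sprr2b holds TGANTCA from -195 to -189, Sprr2h from -198 to -192, and both hold TATAAA from -29 to -24. Of the 12 LCE3 and SPRR genes that were higher, 10 had a window, and TGANTCA and TATAAA were each in 5 of the 10 (50.0%). Over the windows of all bright genes the shares were 6.06% and 10.4%, and over all promoters 7.93% and 14.2%. TGANTCA was in 9.38% of all 160 windows of higher genes and 11.6% of the 189 of lower genes, and TATAAA in 26.2% and 32.3%. The nuclear receptor half-site AGGTCA was in 15.0% of the windows of higher genes and 12.2% of those of lower genes, against 13.3% of the windows of all bright genes.

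Most of the bright protease inhibitors of the epidermis were also higher, and a smaller share of its bright proteases. With dim genes the shares were closer. Of 16 inhibitors on the array 7 were higher and 1 lower, and of 18 proteases 7 were higher and 2 lower. Over all genes 7.17% were higher and 6.88% lower. Kallikreins cut the junctions that hold the outermost cells, and serpins, cystatins and stefins hold such proteases in check. Of 13 bright inhibitors 7 were higher and 1 lower, with a median of 1.27, or 0.86 with no brightness limit. BC117090, a stefin gene with the RefSeq symbol Cstdc6, read 24115 on ATRA+NIC and 6245 on NIC, and 17990.3 on ATRA and 14399.6 on Control, and differed by 1.95. The lower one was Cst6, cystatin M/E, at 8624 on ATRA+NIC and 17967 on NIC (-1.06). Of 12 bright kallikreins and membrane serine proteases 4 were higher and 2 lower. Klk9 read 13352 on ATRA+NIC and 3900.0 on NIC, and 14683 on ATRA and 9258 on Control, and differed by 1.78. Klk14 read 1221 on ATRA+NIC and 346 on NIC, and 1147 on ATRA and 1439 on Control, and differed by 1.82 with nicotinamide and -0.33 without it. The 2 lower ones were St14, the membrane protease matriptase, at 1898 on ATRA+NIC and 4524 on NIC (-1.25), and Tmprss11e, at 843 on ATRA+NIC and 1799.9 on NIC (-1.09).

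Higher genes too lay in runs, 7 with 34 genes in all, again with ends set by the genes that passed. Besides the LCE3 and the Sprr2 runs on chromosome 3, they were the Serpinb3 genes with Serpinb11 on chromosome 1, 4 of 4 bright genes, the Krt6 genes with 3 predicted genes on chromosome 15, 5 of 5, the stefins on chromosome 16, 5 of 5, kallikreins on chromosome 7, 4 of 8, and the glutathione transferases of the Gsta group on chromosome 9, 4 of 4. In ATRA minus Control all 5 genes of the LCE3 run were also 2-fold higher, as were 2 of the 7 in the Sprr2 run, 2 of the 5 in the Krt6 run and 1 of the 4 in the Gsta run. The count was 0 of the 4 in the Serpinb3 run, 0 of the 5 in the stefin run and 0 of the 4 in the kallikrein run. In the Gsta run the 1 gene was Gsta4 (1.66 with nicotinamide and 1.23 without it), whereas Gsta2 read 1035 on ATRA+NIC and 277 on NIC, and 566 on ATRA and 598 on Control, and differed by 1.90 with nicotinamide and -0.079 without it. The members of each of these families resemble each other in sequence.

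The bright lipid and junction genes of the barrier had list medians under 2-fold, and single genes were past it. Of 24 bright ceramide and barrier lipid genes 4 were higher and 2 lower, with a median of 0.31. Over all bright genes 3.75% were higher and 4.19% lower. The 5 dim ceramide and barrier lipid genes had a median of 1.32. Of all 29 on the array 7 were higher and 2 lower, against 7.17% and 6.88% over all genes. Degs2, a ceramide desaturase, read 3271 on ATRA+NIC and 1112 on NIC, and 3521 on ATRA and 1428 on Control, and differed by 1.56. Alox12b, a lipoxygenase needed for the barrier, read 6578 on ATRA+NIC and 2759 on NIC, and 6611 on ATRA and 3739 on Control, and differed by 1.25. The lower ones were the epidermal lipoxygenase Alox12e, at 175 on ATRA+NIC and 1305 on NIC (-2.90), and Asah1, acid ceramidase, at 326 on ATRA+NIC and 861 on NIC (-1.40). Of 18 bright genes of cholesterol synthesis and uptake and of 18 of fatty acid synthesis and the sebaceous gland, 0 were higher and 0 lower.

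Of 18 bright tight junction and desmosome genes 3 were higher and 0 lower, all 3 desmosomal cadherins. With dim genes the balance was the other way, 3 higher and 6 lower of 29 on the array, against 7.17% and 6.88% over all genes. The 6 included the dim desmosomal cadherin Dsg4 (-2.04), named after its value was seen. Dsc3, desmocollin 3, read 3046 on ATRA+NIC and 735 on NIC, and 3026 on ATRA and 3181 on Control, and differed by 2.05 with nicotinamide and -0.072 without it: NIC alone was low. Dsg3, desmoglein 3, read 2595 on ATRA+NIC and 1036 on NIC (1.32). The third was Dsg1c, at 1.14, named after its value was seen. Claudins were on the other side of 0, Cldn1 at -0.65 and Cldn4 at -0.92. Aqp3, the glycerol and water channel of the epidermis, read 11974 on ATRA+NIC and 4762 on NIC, and 9426 on ATRA and 7759 on Control, and differed by 1.33.

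**Figure D3:**
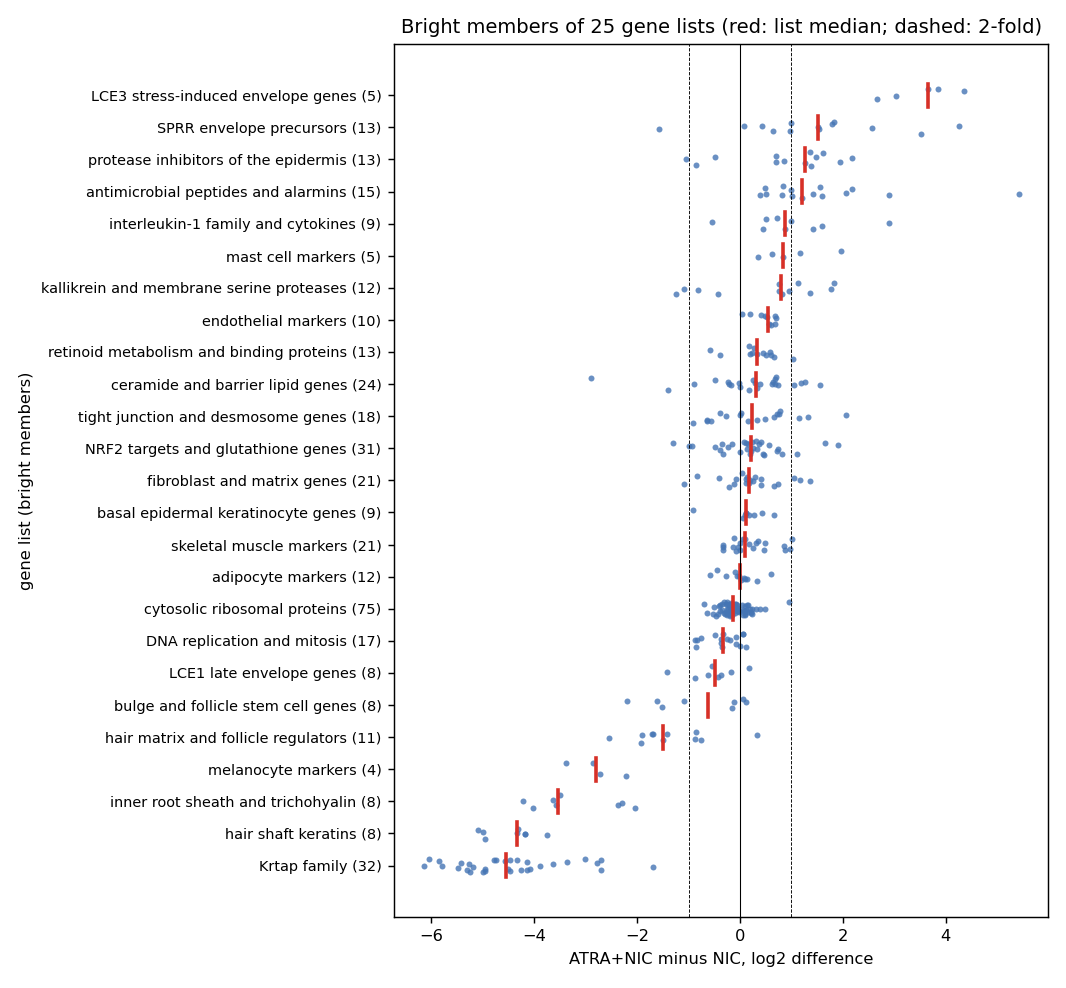
Difference ATRA+NIC minus NIC (log2) of the bright members of 25 of the 53 gene lists, 1 point per gene, with the number of bright members in brackets and the list median in red. LCE3 genes lie highest and Krtap, hair shaft and inner root sheath genes lowest, while ribosomal protein, adipocyte and muscle genes lie around 0.

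Genes that handle retinoids differed little. Of 13 bright genes of retinoid metabolism and binding 1 was higher and 0 lower, with a median of 0.32. The higher one was Rbp2, a cellular retinol-binding protein, which read 3756 on ATRA+NIC and 1843 on NIC and differed by 1.03, or by 0.95 after cyclic loess. Crabp2, a retinoic acid-binding protein named here after its values were seen, read 14542 on ATRA+NIC and 9651 on NIC, and 14341 on ATRA and 9767 on Control, and differed by 0.59 with nicotinamide and 0.55 without it. Cyp26b1, which breaks down retinoic acid and was picked in the same way, differed by 0.19. Cyp26a1, another such enzyme and a classical target of retinoic acid, read 24.7 on ATRA+NIC and 25.0 on NIC, below the random probes, and Rarb, the receptor gene that retinoic acid induces in many cells, read 41.6 on ATRA+NIC and 36.6 on NIC, near them, so a difference in either was not detectable at this signal. Dhrs9, a retinol dehydrogenase that is not among the bright genes, read 346 on ATRA+NIC and 146 on NIC (1.24).

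Of 8 bright receptors and coregulators 0 were higher and 2 lower. Rarg, the main retinoic acid receptor of epidermis, read 1702 on ATRA+NIC and 1423 on NIC, and 1195 on ATRA and 2889.5 on Control, and differed by 0.26 with nicotinamide and -1.27 without it. Rara, another of these receptors, read 572 on ATRA+NIC and 451 on NIC (0.34). Vdr, the vitamin D receptor, read 1147 on ATRA+NIC and 3697 on NIC, and 1213 on ATRA and 3229 on Control, and differed by -1.69. Thra, a thyroid hormone receptor, read 430.3 on ATRA+NIC and 1014 on NIC, and 582 on ATRA and 543 on Control, and differed by -1.24, or by -0.71 when its brightest target was taken alone. Among 6 bright EGF family genes 1 was higher, the ligand Epgn, at 855 on ATRA+NIC and 396 on NIC (1.11).

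Nicotinamide, the NAD source, was in the treatment on both arrays. Of 11 bright genes of NAD and nicotinamide metabolism 1 was higher and 0 lower, with a median of 0.44 against 0.068 without nicotinamide. The higher one was Qprt, which makes NAD precursors from quinolinic acid. It read 2597 on ATRA+NIC and 1043 on NIC, and 1930.2 on ATRA and 1981 on Control, with differences of 1.32 and -0.038, and NIC was the lowest array. Haao, an enzyme upstream of Qprt, read 861 on ATRA+NIC and 454 on NIC (0.92), and Parp1, a large NAD consumer, 312 on ATRA+NIC and 352 on NIC (-0.18).

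Among dermal genes, 3 of 21 bright fibroblast and matrix genes were higher, 1 was lower and 17 lay within 2-fold. Over all bright genes 3.75% were higher and 4.19% lower. Tnc, tenascin C, a matrix protein of healing wounds, read 1093 on ATRA+NIC and 427 on NIC, and 777 on ATRA and 341 on Control, and differed by 1.35. Thbs2, a matrix glycoprotein, read 904 on ATRA+NIC and 402 on NIC (1.17). Timp1, an inhibitor of matrix proteases (chromosome X, 20447389 to 20451859), read 1606 on ATRA+NIC and 262 on NIC, and 2465 on ATRA and 495 on Control, and differed by 2.61. The matrix protease Mmp3 read 910.1 on ATRA+NIC and 325 on NIC (1.49). Timp1 and Mmp3 were the 2 higher ones of 6 bright matrix proteases and their inhibitors, and 0 were lower. With dim genes, 6 of 20 on the array were higher and 1 lower, against 7.17% and 6.88% over all genes. In Timp1 ATRA was the highest array, above ATRA+NIC.

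Mast cell genes were above 0 in all 5 bright members, with 2 higher by 2-fold and a sum of 7136 on ATRA+NIC and 3871 on NIC. The 8 dim members had a median of 0.25. Of all 13 on the array 4 were higher and 1 lower, against 7.17% and 6.88% over all genes. Hdc, which makes histamine, read 930.1 on ATRA+NIC and 238 on NIC, and 705 on ATRA and 578 on Control, and differed by 1.96. Mcpt4, a mast cell protease, read 1600.5 on ATRA+NIC and 709 on NIC (1.17). Of 14 bright macrophage and dendritic cell genes 1 was higher, the scavenger receptor Cd163, at 591 on ATRA+NIC and 294 on NIC (1.00), or 0.66 by its brightest target. The 10 bright endothelial genes were all above 0 and under 2-fold, between 0.047 and 0.70, with a median of 0.55. Adipocyte genes had a median of -0.0032, with 0 of 12 past 2-fold, and skeletal muscle genes, from the layer below the skin, a median of 0.093, with sums over 21 bright genes of 55561 on ATRA+NIC and 59609 on NIC. Of T, NK and B cell markers 1 of 18 was bright, Thy1, at 588 on ATRA+NIC and 606 on NIC.

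ATRA was compared in 2 ways, as ATRA+NIC minus NIC and as ATRA minus Control, and these differences share no array. Without nicotinamide 92 bright genes were at least 2-fold higher (1.45%) and 189 at least 2-fold lower (2.97%). Higher both times were 30 genes, 12.6% of the 239 and 32.6% of the 92. Lower both times were 137, 51.3% of the 267 and 72.5% of the 189. Over the 239 higher genes the median of ATRA minus Control was 0.33, and over the 267 lower genes -1.09, against 0.08 over all bright genes. Outside the hair lists and the Krtap family, 77 of 198 lower genes were also lower without nicotinamide, but these still include clone-named genes of the runs that hold Krtap genes. Outside those runs too, the count was 22 of 143.

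The NIC array was the lowest of the 4 arrays for 219 of the 239 higher genes and the highest for 246 of the 267 lower ones, and since these genes were chosen for a low or high value on NIC against ATRA+NIC, this is in part what the choice brings. Of the 239 higher genes 206 lay within 2-fold in ATRA minus Control. Among them, Hamp, the iron hormone hepcidin, read 1937 on ATRA+NIC and 414 on NIC, and 154 on ATRA and 259 on Control, and differed by 2.22 with nicotinamide and -0.75 without it. Apcs, serum amyloid P, read 1118 on ATRA+NIC and 262 on NIC, and 366 on ATRA and 609 on Control, and differed by 2.09 and -0.73. In these 2 genes ATRA+NIC alone was high and ATRA was the lowest or next to lowest array. Hamp was under the brightness limit on ATRA and Control, so it counts as bright through ATRA+NIC and NIC. Ptges, a prostaglandin E synthase, read 826 on ATRA+NIC and 207 on NIC, and 374 on ATRA and 429 on Control, and differed by 1.99 and -0.20. Spink7, a protease inhibitor, read 1468 on ATRA+NIC and 319.6 on NIC, and 788 on ATRA and 535 on Control, and differed by 2.20 and 0.56. Whether any gene's ATRA difference depends on nicotinamide was not tested, since 1 array a group allows no test.

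**Figure D4:**
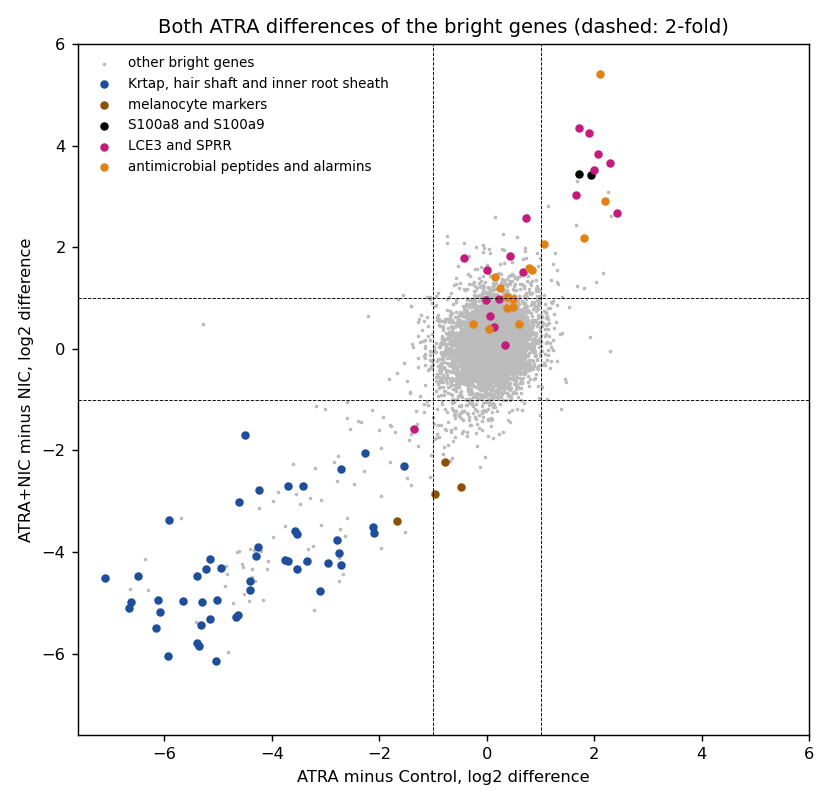
Difference ATRA+NIC minus NIC (vertical axis) against ATRA minus Control (horizontal axis), both log2, for the 6366 bright genes. Krtap and hair genes lie in the lower left in both differences, LCE3 genes in the upper right, and melanocyte genes lie lower on the vertical than on the horizontal axis.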

How the data were processed

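RNA of mouse back skin was labelled with Cy3 and hybridised to NimbleGen 1-colour expression arrays, 1 array for each of 4 groups, per the labels. The authors deposited, for each array, one linear intensity for every target, called RMA in the deposited names. RMA corrects background, makes arrays comparable and joins a target's probes, 3 in nearly all cases, into 1 value. The software version is not given in the sources. Here log2 of the deposited intensities was taken, nothing else was normalised, and the 44170 targets were averaged by gene name (2284 had none). RMA can compress large differences, and a value near the random probes gives no size for a difference.

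Differences are log2, ATRA+NIC minus NIC, counted at 2-fold, with 1 array on each side and no test. A workbook with 4 further per-sample columns, which carry no group names, was not used, nor were the deposited standard errors of the intensities. RefSeq symbols (GRCm38.p6) were matched by gene ID for 6006 of the 6366 bright genes. Array positions are MM9. The counts were recomputed under 10 alternatives. The averaging and counting were also run on simulated arrays with low noise and changes well past 2-fold. That run checked the code and does not show how reliable the counts of these arrays are. Python 3.11.15, pandas 2.3.3, numpy 2.4.6, matplotlib 3.10.9, R 4.3.3 and limma 3.58.1 were used.

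The members and the 53 gene lists were chosen with earlier results of these arrays known. Named genes are, among bright genes with a symbol, the 12 highest and 12 lowest differences, the 12 lowest outside hair, the 8 highest and 8 lowest (outside hair) within 2-fold in ATRA minus Control, the 8 with the largest difference between both ATRA differences, and for each list its 2 highest, 2 lowest and brightest members, besides dim retinoid genes and the 3 genes on each side of the limit. Other genes are said to have been named after their values were seen, or are the members of a run or a list that the text counts.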

Additional observations from a re-analysis of the deposited data

Results flagged for a closer look

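In 4 bright genes the ATRA+NIC minus NIC and the ATRA minus Control differences were both past 2-fold and pointed in opposite ways. The gap between them was not tested, since each group has 1 array. Des, desmin of muscle, read 1006 on ATRA+NIC and 499 on NIC, and 603 on ATRA and 1310.3 on Control. Its differences were 1.01 with nicotinamide and -1.12 without it, 2.13 apart, and the first was 0.98 after cyclic loess. Sec24d, a coat protein of vesicles leaving the endoplasmic reticulum, read 806 on ATRA+NIC and 384 on NIC, and 533 on ATRA and 1575 on Control. Its differences were 1.07 and -1.56, 2.63 apart. For both genes Control was the highest array.

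Tmem216, a membrane protein of cilia, went the other way with 266 on ATRA+NIC and 602 on NIC, and 723 on ATRA and 279 on Control. Its differences were -1.18 and 1.37, and the first less the second was -2.55. The predicted gene EG214403 read 513 on ATRA+NIC and 253 on NIC, and 272 on ATRA and 562 on Control, and its differences of 1.02 and -1.05 were 2.07 apart. Each of the 4 genes rests on 1 target.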

How the results depend on the processing

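The counts moved with the brightness limit and the fold. Lowering the limit to 7.5 (9308 genes) gave 372 higher, 452 lower and 47 higher in both ATRA differences, and raising it to 10 (3187 genes) gave 108, 143 and 16. With no limit (24203 genes) 1735 were higher, 1664 lower, 174 higher in both and 316 lower in both. At 3-fold, 54 were higher, 147 lower and 16 higher in both. The fewer or more genes counted follow from how these settings are built. The other 6 alternatives (brightness taken from ATRA and Control alone, centring, cyclic loess, the brightest target, an offset of 32 and the deposited value table) stayed within 1.5 times, with 203 to 316 higher and 250 to 362 lower. Of the named genes' differences under the 5 alternatives that recompute them, 1265 kept their side of 2-fold and 18 crossed the 2-fold line. Among the differences past 2-fold, 0 reversed. Differences within 2-fold were not compared for a change of direction. A brightness limit leaves a gene's own difference as it is. A limit of 10 left out 99 of the 257 named genes, and brightness from ATRA and Control alone left out 11. For list medians, brightness alternatives included, 470 kept their side of 2-fold, 6 crossed, and 0 of those past 2-fold reversed. The direction of list medians within 2-fold was likewise not compared. Median shifts by scaling were under 0.1 (centring 0.032, cyclic loess -0.018). No paired analysis was possible because each group has 1 array. Signal over background limits dim genes, which carry the wider spread seen with no limit.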

Other observations

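Of 75 bright cytosolic ribosomal protein genes, 69 of oxidative phosphorylation, 29 of the proteasome and 16 of glycolysis, 0 were past 2-fold either way. Glycolysis genes had the highest median of these lists, at 0.41, above the 0.35 that 75% of all bright genes lay under, and NIC was the lowest array for 13 of the 16, with the glucose transporter Slc2a1 at 6349 on ATRA+NIC and 3666 on NIC (0.79), and ribosomal genes a median of -0.14. Of 17 bright genes of DNA replication and mitosis, 0 were past 2-fold, and their median was -0.33 with nicotinamide and 0.29 without it. Foxm1, a mitotic transcription factor, read 241 on ATRA+NIC and 445 on NIC, and 545 on ATRA and 447 on Control, and Mcm7, a replication helicase subunit, 973 on ATRA+NIC and 1762 on NIC, and 1619 on ATRA and 1466 on Control. For Foxm1 ATRA+NIC was the lowest array and ATRA the highest, and for Mcm7 ATRA+NIC was the lowest and NIC the highest.

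Of 26 bright heat shock and unfolded protein response genes 1 was higher and 1 lower, near the shares over all bright genes (3.75% higher and 4.19% lower). Hspb1, a small heat shock protein of differentiating keratinocytes, read 3816 on ATRA+NIC and 12968 on NIC, and 4477 on ATRA and 8631 on Control, and differed by -1.76, with 3 targets between -1.82 and -1.73. Xbp1, a factor of the unfolded protein response, read 1888 on ATRA+NIC and 814 on NIC, and 1676 on ATRA and 1640.1 on Control, and differed by 1.21, or by 0.93 by its brightest target. Of 31 bright NRF2 targets and glutathione genes 3 were higher and 1 lower. Gsta4, a glutathione transferase, read 1028 on ATRA+NIC and 325 on NIC, and 804 on ATRA and 342 on Control, and differed by 1.66. Gpx2, a glutathione peroxidase, read 336 on ATRA+NIC and 829.8 on NIC, and 309.5 on ATRA and 467 on Control, and differed by -1.30. Dbp, a clock output gene, read 692 on ATRA+NIC and 310.1 on NIC, and 668 on ATRA and 883 on Control, and differed by 1.16, the 1 gene of 9 bright clock genes past 2-fold. Cnksr3, a scaffold protein, counts as bright through Control alone, with 261 on ATRA+NIC and 185 on NIC, and 236 on ATRA and 9164 on Control, and was under the brightness limit (an intensity of 362) on the other 3 arrays.

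Of 19 bright immediate early genes 1 was higher, the matricellular gene Cyr61, at 1203 on ATRA+NIC and 566 on NIC (1.09), and 1 lower, the zinc finger factor Egr2, at 998 on ATRA+NIC and 2366 on NIC (-1.25). Both counts were near the shares over all bright genes (3.75% higher and 4.19% lower). Of 8 bright interferon-stimulated genes and 5 bright red blood cell genes 0 were past 2-fold, and haemoglobin Hbb-b1 read 14739.5 on ATRA+NIC and 20038 on NIC (-0.44). Among 6 bright genes of a list of transglutaminases, deiminases and the caspase Casp14, 1 was higher, Tgm5, at 549 on ATRA+NIC and 233 on NIC (1.24, or 0.89 by its brightest target), and 1 lower, the deiminase Padi4, at 338 on ATRA+NIC and 1431 on NIC (-2.08). Of all 10 on the array, dim ones included, 1 was higher and 4 lower, against 7.17% and 6.88% over all genes. Tgm3, a transglutaminase of hair and epidermis, read 7904 on ATRA+NIC and 5455 on NIC (0.53). Of 7 bright keratins of the companion layer and follicle 2 were higher, Krt6a and Krt6b, and 2 lower, Krt15 and Krt23, the last at 1110.3 on ATRA+NIC and 7119.7 on NIC (-2.68). Of 14 bright housekeeping genes 0 were past 2-fold, with Gapdh, by 9 targets, at 29516 on ATRA+NIC and 20305 on NIC (0.54).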
